A study of Mus musculus with 58 samples.

Results

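The 10 genes described here (Cldn5, Pecam1, Cdh5, Kdr, Flt1, Tie1, Tek, Slco1a4, Abcb1a and Vwf) are markers of brain endothelial cells, listed by name as members of that group. They are 10 of the 54532 genes in the RNA-seq count tables and 10 of the 18411 genes in the count tables of lysate RNA and ribosome footprints. All of the tissue was striatum from mice of strain B6129S. The 3g line carries a CRISPR/Cas9-made allele with premature stop codons in Taok2, Sez6l2 and Mvp, and 3g del/+ mice were heterozygous for it. The 16p11.2 line was bought from a mouse repository, and 16p11.2 del/+ mice lacked 1 copy of the mouse region that corresponds to human 16p11.2. Wild type (wt) littermates of each line were the controls, all adult. Both are germline alleles, carried by every cell type and not by endothelial cells alone. RNA-seq covered 4 libraries for each line, genotype and sex (32 in all), and a further set of male lysates gave an RNA library and a footprint library per animal, from 3 del/+ and 3 wt animals of the 3g line and 3 del/+ and 4 wt animals of the 16p11.2 line.

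Endothelial cells line the blood vessels, and in the brain they form the blood-brain barrier, which keeps most solutes of the blood out of the tissue. Tight and adherens junctions seal neighbouring cells to each other, efflux pumps and carriers decide what passes through them, and receptors for vascular endothelial growth factors (VEGFs) and angiopoietins keep the vessels in place. These cells are a small fraction of striatal tissue, so their transcripts are diluted by those of neurons and glia. In bulk tissue such as this, fewer endothelial cells and less RNA per cell cannot be told apart.

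Members of the group were read by role. Cldn5 (claudin-5, the main sealing protein of brain tight junctions) lies at chr16:18776847-18778262 in GRCm38.p6, the build of all coordinates here. Pecam1 (CD31, an adhesion molecule between endothelial cells) lies at chr11:106654213-106715281, and Cdh5 (VE-cadherin of the adherens junction) at chr8:104101613-104144504. Among the receptors, Kdr (VEGF receptor-2, the main signalling receptor for VEGF-A) lies at chr5:75932827-75979072 and Flt1 (VEGF receptor-1, a high-affinity decoy for the same ligand) at chr5:147561604-147726438. Tek (Tie2, the angiopoietin receptor) lies at chr4:94739086-94874976 and Tie1, its orphan partner, at chr4:118471191-118489849. Slco1a4 (an organic anion carrier) at chr6:141805438-141856284 and Abcb1a (P-glycoprotein, a drug efflux pump) at chr5:8567091-8748575 are barrier transporters. Vwf (von Willebrand factor, a clotting protein stored in endothelial cells) lies at chr6:125552948-125686679. The 10 genes span 1416 to 181485 bases of genome, with Cldn5 as the shortest.

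Because 9 of these genes moved together in the RNA-seq and Cldn5 did not, 1 window of 250 bases is shown each for Cldn5, Flt1 and Tie1, taken from RefSeq's promoter sequences in GRCm38.p6, which held 7 of the 10 genes (not Pecam1, Cdh5 or Vwf). The Cldn5 and Tie1 windows end where the span given above begins. The Flt1 window precedes a start that lies further in, so it falls inside the Flt1 span. Each is written 5′ to 3′ on the gene's own strand, and capitals mark GGAA or its reverse complement TTCC, the core letters that ETS factors of endothelial cells bind.
Cldn5, chr16:18776597-18776846, plus strand: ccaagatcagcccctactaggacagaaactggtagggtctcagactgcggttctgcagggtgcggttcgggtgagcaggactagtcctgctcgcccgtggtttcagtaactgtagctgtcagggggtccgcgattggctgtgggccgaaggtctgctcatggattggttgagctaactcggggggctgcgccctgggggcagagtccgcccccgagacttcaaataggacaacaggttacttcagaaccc
Flt1, chr5:147726012-147726261, minus strand: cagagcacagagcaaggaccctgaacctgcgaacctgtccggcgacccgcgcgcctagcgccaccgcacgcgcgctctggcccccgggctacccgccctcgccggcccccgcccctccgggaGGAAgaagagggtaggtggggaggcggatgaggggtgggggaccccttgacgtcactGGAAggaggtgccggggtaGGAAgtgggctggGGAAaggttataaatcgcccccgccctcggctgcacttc
Tie1, chr4:118489850-118490099, minus strand: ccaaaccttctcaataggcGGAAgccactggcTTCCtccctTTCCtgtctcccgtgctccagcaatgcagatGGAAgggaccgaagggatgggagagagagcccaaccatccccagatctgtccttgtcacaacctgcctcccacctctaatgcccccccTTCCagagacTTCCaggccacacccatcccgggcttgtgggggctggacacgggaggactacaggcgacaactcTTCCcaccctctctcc
The Tie1 window held 7 such cores, and 3.82% of 32851 promoters held as many or more. The Flt1 window held 4 (33.4% of promoters held as many or more) and the Cldn5 window held 0. Of the windows not shown, Abcb1a held 5, Kdr and Slco1a4 held 4 each and Tek held 2. At least 1 core was in 6 of the 7 windows and in 93.4% of all promoters. The longer words ACAGGAAG, CCGGAAG and AACAGGAA, searched on both strands, were in none of the 7 windows. They occur in 2.90%, 6.91% and 2.25% of all promoters. These matches describe letters in a window and not binding sites, and their part in the RNA-seq differences was not tested.

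RNA-seq libraries held 11711099 to 65529807 counts in the 3g line and 26592767 to 41300015 in the 16p11.2 line, lysate RNA libraries 15102576 to 19122488, and footprint libraries 342052 to 678130. Levels are CPM, the count of a gene scaled to the size of its library, with TMM factors set over all libraries of an assay. Of the targeted genes, Sez6l2 lay below wt without overlap in all 4 del/+ groups of the RNA-seq. In the 16p11.2 line Taok2 and Mvp did so as well, in males and in females, and Mvp did in 3g females, while in the 3g line Taok2 overlapped wt in both sexes and Mvp in males. A pair of checks went against the labels. Ddx3y, which lies on the Y chromosome, was at 38.5 CPM in the library labelled 16p11.2 del/+ female 1, where Xist was at 0.462 CPM, so that library looked male. Secondly, 3 libraries stood apart from the rest of their line in the endothelial genes. The 10 genes summed to 294 to 339 CPM in 15 of the 16 libraries of the 3g line and to 114 to 188 CPM in 14 of the 16 of the 16p11.2 line. The library 3g wt male 17 lay at 161 CPM, within the range of the other line, while 16p11.2 del/+ male 4 and 16p11.2 wt male 4 lay at 324 and 339 CPM. The main results of the 10 genes are given with and without these libraries, and those of other cell type lists in part.

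**Figure D1:**
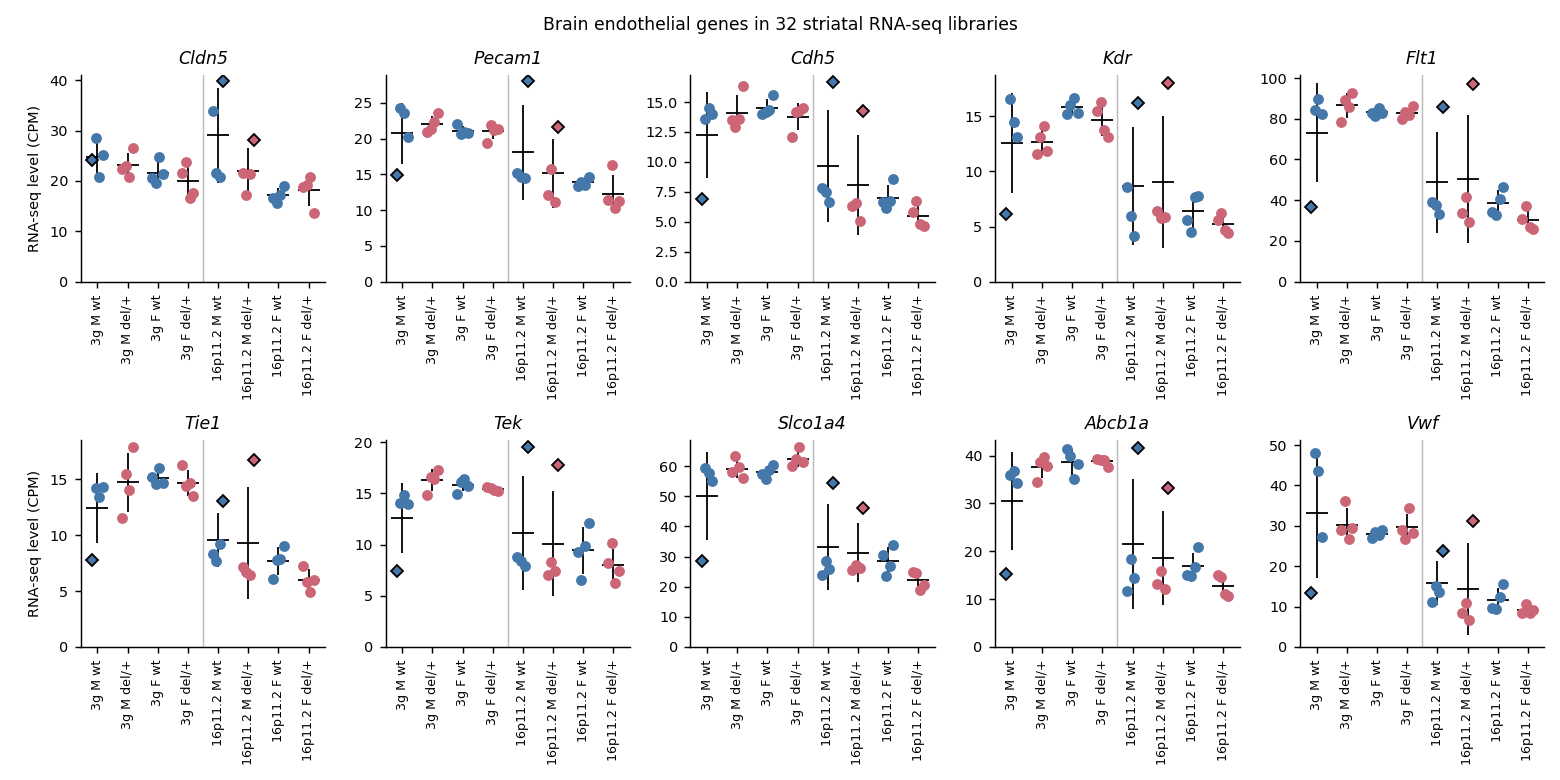
RNA-seq level in CPM (linear axis from 0) of each gene in the 32 libraries, by line, sex (M, F) and genotype, with wt in blue and del/+ in red. Dashes and bars are the mean ± SD of 4 libraries and diamonds are the 3 libraries that stood apart. The 3 were set apart by their levels of these same genes. In all panels but Cldn5 the other 15 libraries of the 3g line lie above the other 14 of the 16p11.2 line.

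The first comparison asked how the wt mice of both lines differ. In the RNA-seq, 9 of the 10 genes were called lower in wt mice of the 16p11.2 line than in wt mice of the 3g line (8 libraries each, edgeR quasi-likelihood test adjusted for sex, adjusted p under 0.05 over all genes). The exception was Cldn5. This background was wide: 62.5% of 19156 genes were called in either direction and 31.6% were called lower. The median log2 difference was -0.77 over the 10 genes and -0.0038 over all genes tested. The line cannot be told apart from the sequencing set or from genetic background. Each line was counted in a table of its own, and which libraries shared a run is not given in the sources used here.

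Vwf had the lowest log2 difference of the group, -1.17 ± 0.21 (SE, adjusted p = 0.00024). It lay between 26.8 and 48.1 CPM in the 15 other 3g libraries and between 6.78 and 15.7 CPM in the 14 other 16p11.2 libraries. The 3g wt male 17 library held 13.2 CPM of it, and the pair of male 4 libraries of the 16p11.2 line held 23.7 and 31.2 CPM. With these 3 libraries set aside the ranges of both lines were far apart, and each of the 3 lay outside the range of its own line. The 3 were set apart by their levels of these same genes, so this follows in part from that choice and is a description only.

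The receptors followed. Kdr differed by -0.93 ± 0.25 on the log2 scale (adjusted p = 0.0042), with 11.6 to 16.7 CPM in the 15 libraries of the 3g line and 4.10 to 8.54 CPM in the 14 of the 16p11.2 line. Flt1 differed by -0.86 ± 0.20 (adjusted p = 0.0015), with 78.4 to 92.8 CPM against 25.9 to 46.6 CPM. Neither pair of ranges overlapped, again with libraries set aside by their levels of these same genes. Tie1 differed by -0.69 ± 0.15 and Tek, closest to the threshold of the 9, by -0.48 ± 0.20 (adjusted p = 0.044). The call for Tek was lost on leaving out any 1 of 13 of the 16 libraries, with adjusted p of 0.064 to 0.093. Of the transporters, Abcb1a differed by -0.87 ± 0.24 and Slco1a4 by -0.82 ± 0.17. Cdh5 differed by -0.71 ± 0.20 and Pecam1 by -0.42 ± 0.14 (adjusted p = 0.013).

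Cldn5 differed by -0.06 ± 0.14 (adjusted p = 0.71). Its ranges overlapped, with 16.6 to 28.6 CPM in the 15 libraries of the 3g line and 13.6 to 34 CPM in the 14 of the 16p11.2 line. In the RNA-seq it also tracked the other members least. Over 32 libraries, after taking out the mean of each line, genotype and sex, its log2 level correlated with the mean of the other 9 genes at r = 0.50, against 0.86 for Tie1, the next lowest, and 0.99 for Flt1, the highest. Without the 3 libraries that stood apart (29 left) the values were 0.16 for Cldn5, 0.36 for Tie1 and 0.90 for Flt1. The order was different over the 13 lysate RNA libraries, where Cldn5 had the highest value (0.84), Tie1 had 0.83 and Flt1 had 0.059. These points share libraries and their depth, and are given as a description.

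Leaving out 3g wt male 17 and 16p11.2 wt male 4, a step chosen after seeing the data, widened the difference. Both were set apart by their levels of these same genes, so the widening follows from that choice and is a description only. The same 9 genes were called lower, the median over the 10 genes was -1.04, Vwf differed by -1.41 ± 0.13, Kdr by -1.29 ± 0.14 and Cldn5 by -0.18 ± 0.11 (adjusted p = 0.16). The share of all 19388 genes called was then 69.3%.

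**Figure D2:**
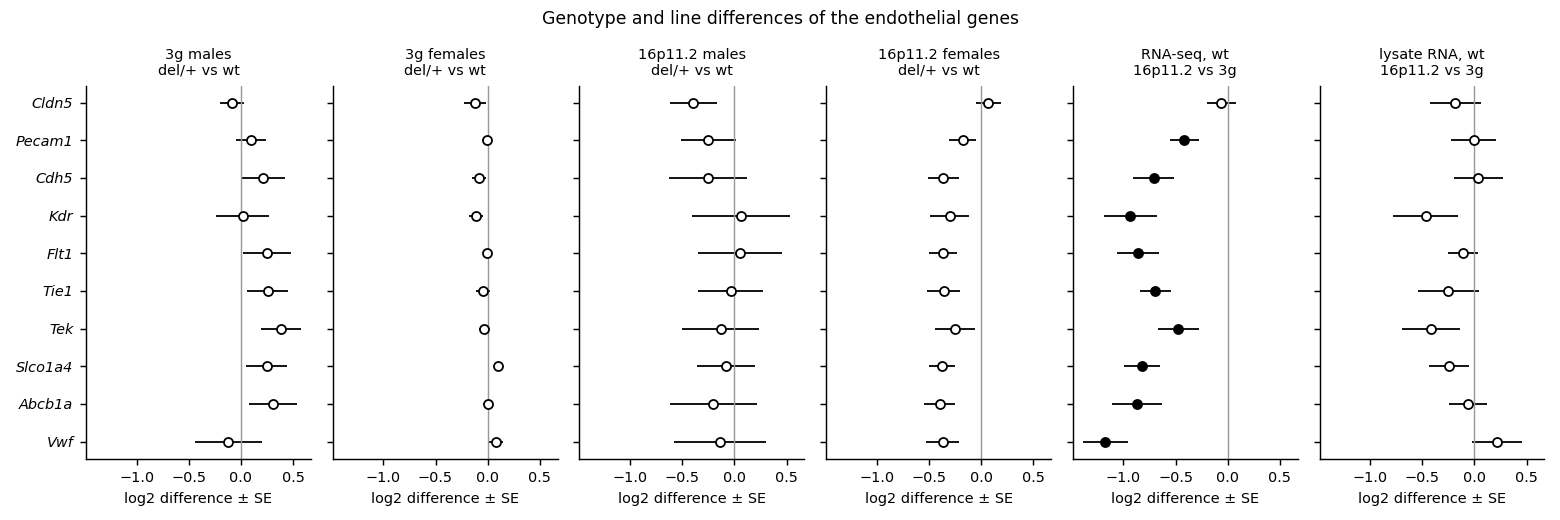
Log2 differences ± SE from edgeR for the 10 genes (rows), with the 4 genotype comparisons of the RNA-seq and the line comparison of wt mice in RNA-seq and in lysate RNA, and filled points where adjusted p was under 0.05. Filled points appear in 1 panel, the RNA-seq line comparison, where 9 of 10 genes are filled and Cldn5 sits at -0.06.

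Lists of other vascular genes went the same way in part. Of 28 further endothelial genes, 16 were called lower in the 16p11.2 line and 2 higher (median log2 difference -0.30), among them Sox17, a transcription factor of arterial endothelium, at -0.88 ± 0.13, the guidance receptor Robo4 at -0.77 ± 0.14 and, in the opposite direction, the sialomucin Cd34 at 0.83 ± 0.15. Barrier transporters had 9 of 20 lower and 2 higher, with the glucose carrier Slc2a1 (Glut1) at -0.54 ± 0.09 and the anion carrier Slc22a8 at -0.90 ± 0.15. Junction genes had 7 of 14 lower and 1 higher, with the tight junction proteins Cgn (cingulin) at -1.10 ± 0.18 and Tjp1 (ZO-1) at -0.50 ± 0.10. These shares stand beside a background of 31.6% called lower.

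The VEGF, angiopoietin and Notch list, which holds the ligands and co-receptors of Kdr, Flt1 and Tek, had 11 of 21 genes lower and 2 higher (median -0.33). The ligand Vegfa was at -0.89 ± 0.11 and the co-receptor Nrp2 at -1.45 ± 0.21. Notch4, which is expressed in endothelial cells, was at -0.65 ± 0.10. The Wnt list of the barrier programme was split, with 7 of 19 lower and 6 higher, including the co-receptors Reck at -0.80 ± 0.11 and Adgra2 (Gpr124) at -0.54 ± 0.09, and the ligand Wnt7b at 0.74 ± 0.12. Arterial genes had 3 of 12 lower and 2 higher. The lower ones were Bmx (-0.85 ± 0.19), Sema3g (-0.38 ± 0.14) and Alpl (-0.31 ± 0.13), and the higher ones Stmn2 (0.76 ± 0.15) and Clu (0.31 ± 0.08). Venous and activated endothelial genes had 4 of 9 lower and 1 higher.

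Among cells that wrap vessels, 7 of 18 mural genes were lower and 0 higher, with Notch3, a receptor of smooth muscle and pericytes, at -0.73 ± 0.13 and the proteoglycan Cspg4 (NG2) at -0.63 ± 0.11, and 7 of 12 perivascular fibroblast genes were lower and 0 higher. Of 5 red blood cell genes edgeR called 0, and 0 were at an unadjusted p under 0.05. Markers of other cells moved with the line as well. Oligodendrocyte genes had 9 of 10 higher in the 16p11.2 line (median 0.55), astrocyte genes 7 of 10 higher and cortical neuron genes 8 of 10 higher (median 1.48), whereas spiny neuron genes had 1 higher and 3 lower of 10, and microglial genes 2 and 2 of 10. The choroid plexus list had 2 of 8 lower and 0 higher.

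**Figure D3:**
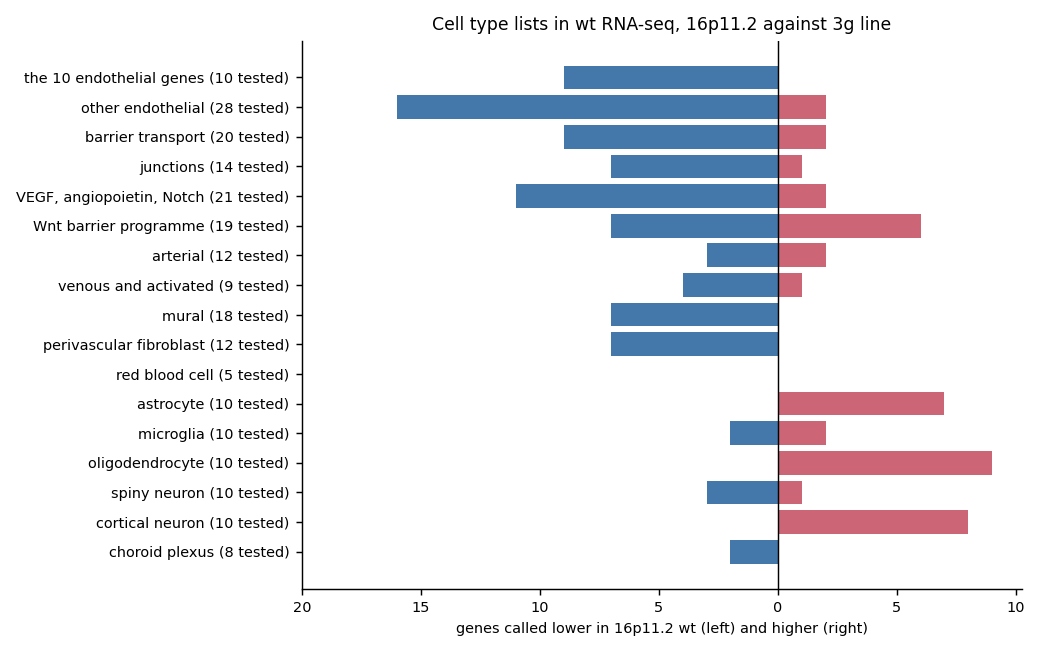
Number of genes per cell type list that were called lower (blue, left) or higher (red, right) in wt RNA-seq of the 16p11.2 line against the 3g line at adjusted p under 0.05, with the number tested in brackets. All wt libraries are included. Bars of the 10 endothelial genes show 9 to the left, 9 of 10 oligodendrocyte genes are to the right and the red blood cell list has no bar.

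The summed oligodendrocyte list followed the same split of libraries in the opposite direction. It lay at 4433 to 7830 CPM in the 15 libraries of the 3g line, at 9361 to 14916 CPM in the 14 of the 16p11.2 line, at 11488 CPM in 3g wt male 17 and at 5916 CPM in 16p11.2 del/+ male 4. The cortical neuron list lay at 1143 to 2083 CPM against 2431 to 3106 CPM, with 2802 CPM in 3g wt male 17 and 2074 CPM in 16p11.2 del/+ male 4. The library 16p11.2 wt male 4 was high in the endothelial list and also held 9121 CPM of the oligodendrocyte list and 3298 CPM of the cortical list. The part of these cell types in the endothelial difference was not tested.

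Gene length moved with the line difference too, though weakly. Over 17212 genes with a known genomic span, Spearman's rho between span and log2 difference was -0.13, and the fifth of genes with the shortest spans (49 to 6057 bases, where Cldn5 belongs) had a median difference of 0.16 against -0.04 in the fifth with the longest. The other 9 endothelial genes span 18659 bases or more. The part of length in the difference was not tested.

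Among the genes whose pattern was most like the mean of the 10 genes over the 32 libraries, by Pearson's r of residual log2 CPM, were Adgrf5, an adhesion receptor of endothelial cells (r = 0.98), and Fn1, which codes for fibronectin (0.98). Ptprb (VE-PTP, the phosphatase partner of Tek) and Cyyr1 followed at 0.95 each, ahead of Fry, Hspg2 (perlecan of basement membranes), Sptan1, Snrnp200 and Gbf1 at 0.94 to 0.95. In the 13 lysate RNA libraries Adgrf5 and Ptprb again ran with the group (r = 0.91 and 0.95), while the others named here had r of -0.20 to 0.51. The first ranking rests on libraries that share the 3 outlying ones. Without them, over 29 libraries, r was 0.86 for Adgrf5, 0.82 for Fn1 and for Cyyr1, and 0.69 for Ptprb. For Fry, Hspg2, Sptan1, Snrnp200 and Gbf1 it was then 0.72 to 0.80.

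In lysate RNA, a separate set of males, 0 of the 10 genes were called between wt mice of the lines (3 against 4 libraries), beside 0.0139% of 14417 genes in the background. At an unadjusted p under 0.05, edgeR found 0 of the 10, and DESeq2 called 0. Log2 differences ran from -0.47 ± 0.31 for Kdr to 0.22 ± 0.24 for Vwf with a median of -0.15. Vwf, the lowest in the RNA-seq, was thus the highest here, with 1.85, 2.82 and 2.73 CPM in the 3g line against 3.04, 2.56, 3.19 and 2.52 CPM in the 16p11.2 line, which overlap. The 10 genes summed to 65.4 to 83.8 CPM over both genotypes in the 3g line and to 49.4 to 76.3 CPM in the 16p11.2 line. Of the other lists edgeR called 0 genes here. The oligodendrocyte sums overlapped, at 3082 to 3955 CPM in the 3g line and 3746 to 5336 CPM in the 16p11.2 line. All 5 red blood cell genes were above 0 at an unadjusted p under 0.05 (median 0.67). The share of all genes at that threshold is not given here, and genes of a single cell type are not separate observations. The difference between the line effects in RNA-seq and in lysate RNA was not tested. RNA-seq and lysate RNA were counted in separate tables, so their levels are not set against each other.

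The comparison of genotypes asked whether loss of 1 copy of the 3 genes or of the whole region changed the endothelial genes. Both edgeR and DESeq2 called 0 of the 10 in every genotype comparison of the RNA-seq. The edgeR background was 0% of 19081 genes for males of the 3g line and 0.00526% for its females. For the 16p11.2 line it was 0.106% (males) and 0.144% (females). With both sexes together, adjusted for sex, it was 0.00517% in the 3g line and 0.18% in the 16p11.2 line. In the 3g line without wt male 17, both sexes together, 2 of the 10 were at an unadjusted p under 0.05 (Kdr at -0.16 ± 0.06 and Slco1a4 at 0.08 ± 0.03), where 9.94% of 19531 genes were, and the lowest adjusted p was 0.41. Neither 3g nor 16p11.2 del/+ libraries separated from wt without overlap for any of the 10 genes in either sex. Over all genes tested, 1.93% (males) and 5.52% (females) did not overlap in the 3g line, and 3.81% and 2.74% in the 16p11.2 line.

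In 3g females the 10 genes differed least. Log2 differences ran from -0.12 ± 0.11 for Cldn5 to 0.10 ± 0.04 for Slco1a4, with a median of -0.02. Slco1a4 lay at 59.999, 62.3, 66.3 and 61.4 CPM in del/+ and at 57.5, 55.7, 58.7 and 60.3 CPM in wt. A single wt library reached into the del/+ range, and edgeR gave the gene an unadjusted p of 0.026 (adjusted p = 0.39).

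In 3g males 8 of 10 differences were above 0 (median 0.23), from -0.12 ± 0.32 for Vwf to 0.38 ± 0.19 for Tek, and edgeR found 0 of the 10 at an unadjusted p under 0.05. Tek lay at 14.8, 16.6, 16.4 and 17.3 CPM in del/+ and at 7.44, 14.1, 14.9 and 13.9 CPM in wt, the lowest being wt male 17. Without that library the median was 0.02, 6 of 10 were above 0, and Tek differed by 0.20 ± 0.07 and Vwf by -0.39 ± 0.17 (adjusted p = 0.9999 for both). These 2 genes were at an unadjusted p under 0.05, as were 3.03% of 19403 genes. The upward shift in males was thus largely absent without 1 library.

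In 16p11.2 females 9 of 10 genes were lower in del/+, with a median log2 difference of -0.36 against -0.0012 over all genes tested. Of these, 6 (Flt1, Slco1a4, Abcb1a, Cdh5, Vwf and Tie1) were at an unadjusted p under 0.05, where the background was 4.47% of 18067 genes. After adjustment none passed, with adjusted p of 0.99 or more. Abcb1a lay at 14.97, 14.6, 10.98 and 10.7 CPM in del/+ and at 14.97, 14.8, 16.7 and 20.8 CPM in wt (-0.40 ± 0.14). Flt1 lay at 30.6, 36.98, 26.9 and 25.9 CPM in del/+ and at 34.3, 32.7, 40.4 and 46.6 CPM in wt (-0.36 ± 0.13). In both genes 3 of the 4 del/+ libraries were below all wt libraries and the other lay within the wt range. Slco1a4 (-0.38 ± 0.12), Cdh5 (-0.36 ± 0.15), Vwf (-0.37 ± 0.16) and Tie1 (-0.36 ± 0.15) had differences of nearly the same size, and Kdr (-0.30 ± 0.18), Tek (-0.25 ± 0.19) and Pecam1 (-0.18 ± 0.13) smaller ones. Cldn5 was on the other side of 0, at 0.07 ± 0.12. Without del/+ female 1, the library with a male pattern, the median was -0.36, 5 of 10 were at an unadjusted p under 0.05 (6.11% of 18288 genes), and the lowest adjusted p was 0.72. Without del/+ female 4 or without wt female 4 the number was 1 of 10, with medians of -0.30 and -0.23. The share of all genes at that threshold is not given for these fits. Markers of other cells moved in the same comparison. All 5 red blood cell genes were above 0 (median 0.63), 4 of them at an unadjusted p under 0.05, and all 10 astrocyte genes were above 0 (median 0.13), 0 of them at that threshold. Their part in the endothelial differences was not tested.

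In 16p11.2 males the spread was wide because del/+ male 4 and wt male 4 both lay high. Kdr was at 6.43, 5.81, 5.85 and 18.0 CPM in del/+ and at 8.54, 5.92, 4.10 and 16.2 CPM in wt, so 1 library of each group was well above the other 3. Log2 differences ran from -0.39 ± 0.22 for Cldn5 to 0.07 ± 0.47 for Kdr (median -0.14), and edgeR found 0 of the 10 at an unadjusted p under 0.05. Without the male 4 libraries the SE of Kdr fell to 0.24 and its difference was -0.04, the median was -0.16, and Vwf had the lowest value, -0.60 ± 0.19 (adjusted p = 0.58). Vwf and Tie1 were then at an unadjusted p under 0.05, as were 7.4% of 18116 genes. Over both sexes together all 10 differences were below 0 (median -0.20, lowest adjusted p 0.82), and without the male 4 libraries 6 of 10 were at an unadjusted p under 0.05, where 9.01% of 18517 genes were, and the lowest adjusted p was 0.25. Without del/+ female 1 in place of these, the lowest edgeR adjusted p over both sexes was 0.94.

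Whether the genotype effect differed between sexes or lines was tested with interaction terms. No member was called for genotype by sex in the 3g line (background 0% of 19830 genes) or in the 16p11.2 line (0% of 18870). The values lay between -0.41 ± 0.20 for Tek and 0.21 for Vwf in the 3g line, and between -0.42 for Flt1 and 0.47 ± 0.28 for Cldn5 in the 16p11.2 line. The 16p11.2 fit took del/+ female 1, the library with a male pattern, as female. Without it the values lay between -0.43 for Tie1 and 0.44 ± 0.30 for Cldn5 (edgeR adjusted p of 0.69 or more). With all libraries, edgeR found 0 of the 10 at an unadjusted p under 0.05 in each line. Without 3g wt male 17 there were 2, Tek at -0.24 ± 0.08 and Vwf at 0.46 ± 0.20 (3.48% of 20135 genes), and without the male 4 libraries there was 1, Slco1a4 at -0.39 ± 0.17 (3.53% of 19201 genes), all with an adjusted p above 0.99. For genotype by line no member was called, beside 0.131% of 19886 genes. All 10 values were below 0 (median -0.28, against 0.017 over all genes tested), with Abcb1a at -0.45 ± 0.29 and Slco1a4 at -0.40 ± 0.21. Without 16p11.2 del/+ female 1 these 2 genes were at -0.48 ± 0.30 and -0.41 ± 0.22, and no member was called. Without the 3 libraries that stood apart the median was -0.28, 6 of 10 were at an unadjusted p under 0.05, where 7.76% of 20008 genes were, and the lowest adjusted p was 0.40.

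In lysate RNA 0 of the 10 genes were called in either line, beside 0.0209% of 14378 genes in the 3g line and 0.133% of 14330 in the 16p11.2 line. edgeR found 0 of the 10 at an unadjusted p under 0.05 in both lines, and DESeq2 called 0. Of the 10 differences 9 were below 0 in the 3g line, from -0.29 ± 0.25 for Kdr to 0.20 ± 0.26 for Vwf. In the 16p11.2 line 8 were below 0, from -0.47 ± 0.34 for Vwf to 0.36 ± 0.23 for Pecam1. The medians were -0.13 and -0.22. In the 16p11.2 line 1 del/+ animal held 8 counts of Tie1 and 17 of Tek, below every other animal of the line in both genes. No member was called for genotype by line, beside 0.122% of 14740 genes, and the values lay between -0.66 for Vwf and 0.48 for Pecam1.

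Ribosome footprints are the short RNA fragments that ribosomes protect, and their number per RNA is read as the load of ribosomes on a transcript. The endothelial genes had few of them. Apart from Kdr, a footprint library held 0 to 18 counts of each member, and pooled over the 3 wt animals of the 3g line the totals were 0 for Tek, 1 for Abcb1a, 8 for Cdh5, 10 for Pecam1, 14 for Tie1, 15 for Slco1a4, 23 for Cldn5, 29 for Flt1 and 30 for Vwf. Kdr had 472. Intervals given for pooled counts are exact Poisson 95% intervals and cover counting error only.

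In wt mice the footprint share of each gene was set against its RNA share. This ratio also depends on which parts of a gene were counted, which was not given in the sources used here, so an order of genes by this ratio describes these tables and is not an order of ribosome load. In the 3g line 6 of the 10 genes were called against 44.3% of 13963 genes in the background, and in the 16p11.2 line 3 of 10 against 46.6% of 13682. Kdr had the highest value in both, 6.25 ± 0.41 and 5.92 ± 0.25 on the log2 scale. Pooled over wt animals, Kdr had 415 footprint CPM (379 to 454) and 3.58 RNA CPM in the 3g line, and 165 footprint CPM (147 to 184) and 2.37 RNA CPM in the 16p11.2 line. Those ratios of 116 and 69.5 ranked 36th of 10938 and 58th of 11475 genes with at least 10 counts in each assay, where the median ratio was 1.58 and 1.17.

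Vwf was called higher in footprints than in RNA in both lines, by 2.74 ± 0.46 in the 3g line and 2.08 ± 0.37 in the 16p11.2 line. Slco1a4 was called lower in both, by -1.26 ± 0.35 and -1.05 ± 0.39. Tie1 was called higher in the 3g line (2.17 ± 0.61) and had 1.31 ± 0.62 in the 16p11.2 line (adjusted p = 0.092). Cldn5 had 0.73 ± 0.42 and 0.85 ± 0.39, and Flt1 -0.64 ± 0.33 and -0.60 ± 0.25, none of which passed. The calls for Slco1a4 and Tie1 were not stable to leaving out animals. In the 3g line Slco1a4 lost its call without the wt animal that had 171 or the one that had 331 CPM of Kdr footprints, and Tie1 without the one that had 618 or 331 CPM. In the 16p11.2 line Slco1a4 lost it in DESeq2 (adjusted p = 0.055) and on leaving out any of 3 of the 4 wt animals (adjusted p of up to 0.12). The 2 others called in the 3g line rest on almost no footprints. Tek had 0 footprints in 3 wt libraries, which allows up to 2.64 CPM at a floor of 3 pooled counts and 3.25 CPM by the exact interval, against 3.71 RNA CPM. Abcb1a had 1 footprint (0.88 CPM, interval 0.022 to 4.90) against 6.12 RNA CPM, and in the 16p11.2 line 14 footprints gave 7.03 CPM against 5.39 RNA CPM.

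**Figure D4:**
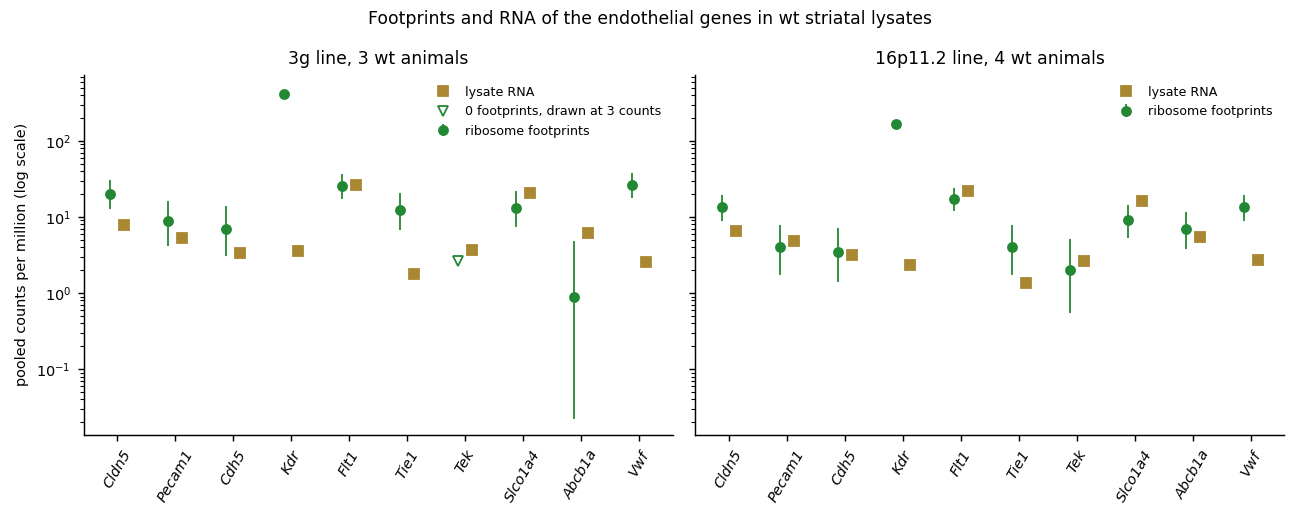
Pooled footprint CPM (green, with exact Poisson 95% intervals) and pooled lysate RNA CPM (brown squares) of each gene in wt animals of each line, on a log axis. Kdr stands at 415 and 165 footprint CPM over 3.58 and 2.37 RNA CPM, and the open triangle marks Tek, with 0 footprints in the 3g line, at the level of 3 counts.

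Between genotypes, Kdr was the member with enough footprints to pass the count filter in every fit. Cldn5 and Flt1 passed in the 3g line, and the other members passed in neither line. In the 3g line Kdr held 148, 125 and 146 footprint CPM in the del/+ animals and 618, 171 and 331 CPM in the wt animals. All del/+ animals were below all wt animals, with 1 wt animal just above them. The log2 difference was -1.43 ± 0.34, and it was not called by edgeR (adjusted p = 0.29, background 0.0132% of 7553 genes), while DESeq2 gave an adjusted p of 0.0069. An exact 2-sided permutation test gave p = 0.1, the smallest that 3 against 3 animals allow.

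In the 16p11.2 line the order was the opposite. Kdr held 386, 384 and 294 footprint CPM in the del/+ animals and 234, 289, 165 and 146 CPM in the wt animals, again without overlap. The log2 difference was 0.78 ± 0.22 (edgeR adjusted p = 0.22, background 0.117% of 5964 genes, and DESeq2 adjusted p = 0.048), and the exact 2-sided permutation test gave its smallest possible p for 3 against 4 animals, 0.0571. The tested difference between the lines was called. Genotype by line for Kdr was 2.19 ± 0.42 (edgeR adjusted p = 0.018, 13 animals), where 0.169% of 7692 genes were called. Without the wt animal that held 618 CPM, the 3g difference was -0.84 ± 0.26 and genotype by line was 1.64 ± 0.35 (adjusted p = 0.017). The interaction fell short of the threshold on leaving out any 1 of the 3 del/+ animals of the 3g line, the 16p11.2 del/+ animal with 386 or 384 CPM, or the 16p11.2 wt animal with 146 CPM, with log2 values of 2.05 to 2.22 and adjusted p of 0.057 to 0.10. DESeq2 called it (adjusted p = 0.031).

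Kdr RNA in the same lysates did not show this. It lay at 2.61, 2.65 and 3.07 CPM in 3g del/+ against 4.10, 3.71 and 2.40 in wt, and at 1.91, 1.98 and 2.10 CPM in 16p11.2 del/+ against 2.46, 2.93, 1.21 and 3.21 in wt. Both pairs of groups overlapped. Footprints per RNA of Kdr, from a model with a genotype by assay term, differed by -1.10 ± 0.43 in the 3g line (adjusted p = 0.58, and -0.70 without the wt animal with 618 CPM) and by 0.99 ± 0.35 in the 16p11.2 line (adjusted p = 0.76), beside 0% of 15137 and 0.00664% of 15071 genes. Footprint and RNA libraries of an animal came from 1 lysate, so they are paired. With the animal as a replicate block the values were -1.003 ± 0.30 (adjusted p = 0.18) and 1.03 ± 0.29 (adjusted p = 0.21), and the number of all genes called went from 0 to 43 and from 1 to 13, with no member among them.

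Genes with still higher ratios than Kdr were looked at in the same libraries. Over all 13 animals 97 genes had a higher footprint to RNA ratio than Kdr (86.3), among them the Wnt receptor Fzd8 and Lama1, which codes for a laminin chain. These genes were chosen after their values were seen. They made up 3.09% to 10.4% of all footprints of a library. Of the 66 that could be tested for genotype by line in footprints, 60 were above 0, with a median of 1.13 against -0.0091 over all genes tested, and 4 were called, namely Fzd8 (2.68 ± 0.50), Lama1 (2.03 ± 0.40), Olfr1029 (2.26 ± 0.33) and Tex52 (2.38 ± 0.38). Their summed footprints lay at 26993 to 34724 CPM in 3g del/+ and 44366 to 82960 CPM in 3g wt animals, and at 103916 to 130943 CPM in 16p11.2 del/+ and 76817 to 104308 CPM in 16p11.2 wt animals. Animal by animal the likeness to Kdr was loose. Over the 13 libraries r with log2 Kdr was 0.50 for the sum, 0.65 for Fzd8 and 0.22 for Lama1. The 3g wt animal with 618 CPM of Kdr had the lowest sum of its group and, at 71.8 CPM, the lowest Lama1 of all 13, and Lama1 overlapped between the 3g genotypes. The part of what these genes share in the Kdr result was not tested.

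**Figure D5:**
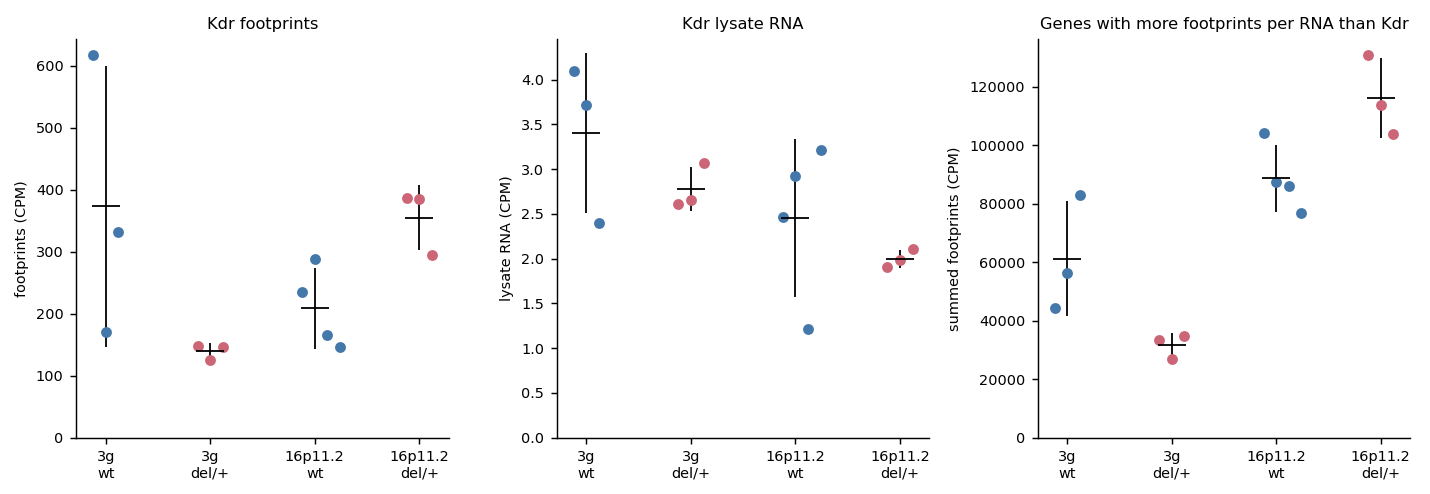
Kdr footprints (left), Kdr lysate RNA (middle) and the summed footprints of the 97 genes with more footprints per RNA than Kdr (right), all in CPM on linear axes from 0, per animal with mean ± SD (wt blue, del/+ red). Left and right, 3g del/+ animals lie below 3g wt animals, and the 16p11.2 del/+ animals lie at the upper end of their line.

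Footprint totals also moved with genotype in the 3g line, at 527917 to 678130 counts in del/+ and 342052 to 422918 in wt. Scaling by total counts in place of TMM left the Kdr differences at -1.54 ± 0.38 in the 3g line, 0.78 ± 0.24 in the 16p11.2 line and 2.32 ± 0.47 for genotype by line (adjusted p = 0.021). Between wt animals of the lines, Kdr footprints differed by -0.85 ± 0.33 (adjusted p = 0.35, background 0.241% of 6633 genes), by -0.27 ± 0.28 without the 3g wt animal that held 618 CPM, and by -1.39 ± 0.37 (adjusted p = 0.033) when scaled by total counts.

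Counts of the other members were low. Groups of the 3g line did not overlap for 6 of the 10 genes (Pecam1, Kdr, Slco1a4, Tek, Abcb1a and Cdh5), where 13.1% of the 7553 tested genes did not overlap, but 5 of these 6 did not pass the count filter and had 0 to 15 counts per library. Slco1a4 lay at 15.2 to 28.5 CPM (10 to 15 counts) in del/+ against 9.58 to 13.8 CPM (4 to 6 counts) in wt. Abcb1a lay at 7.60 to 9.13 CPM (4 to 6 counts) against 0 to 2.39 CPM (0 to 1 counts). Tek lay at 3.04 to 3.86 CPM (2 to 3 counts) against 0 CPM. Pecam1 went the other way in CPM, at 3.798, 3.86 and 3.04 against 9.58, 6.92 and 7.10, and so did Cdh5. Raw counts of Pecam1 overlapped, at 2 to 3 in del/+ against 3 to 4 in wt, and the del/+ libraries were the deeper ones. In the 16p11.2 line groups did not overlap for Kdr and Cldn5, where 6.69% of the 5964 tested genes did not overlap. Cldn5 did not pass the count filter in this line, so it is not among those tested genes. Cldn5 lay at 0 to 9.30 CPM (0 to 3 counts) in del/+ against 13.8 to 20.3 CPM (5 to 10 counts) in wt. In the 3g line Cldn5 differed by 0.19 ± 0.46 and Flt1 by -0.03 ± 0.43, and their genotype by line values were -1.79 ± 0.87 (adjusted p = 0.56) and 0.43 ± 0.63.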

How the data were processed

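Counts were analysed as the authors deposited them, as whole-number read counts per Ensembl gene without normalization. In lysate RNA the 22 largest counts looked rounded in their last digit. The RNA-seq tables came from a bcbio-nextgen run, with HTSeq and the mm10 build named in the submitters' processing notes. For lysate RNA and footprints the notes name Bowtie2 and mm39. The regions counted, the strand setting of the counting and how rRNA reads were treated are not given in the sources used here. Labels describe a Ribo-Zero kit for the RNA-seq. Gene symbols were matched by Ensembl identifier. The 10 members and the 16 other lists (222 genes) were chosen with earlier results of these data known.

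edgeR 4.0.16 (R 4.3.3) fitted each comparison over all genes kept by its expression filter, with TMM factors, the quasi-likelihood test and Benjamini-Hochberg adjustment, called at adjusted p under 0.05. The standard error is the log2 difference divided by the root of F. DESeq2 1.42.0 was an alternative, as were RLE factors, no filter, a threshold of 0.10, a replicate block and leaving out single libraries. From other lists at most 5 called genes with the lowest adjusted p could be named. Of the 10 genes most like the members, 1 is not reported here. The 4 libraries of a group are separate samples by label, and p-values measure the spread between them. The scripts were tested on simulated data.

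Depth was 11711099 to 65529807 counts in RNA-seq, 15102576 to 19122488 in lysate RNA and 342052 to 678130 in footprints, so footprint values are the least precise. Footprint and lysate RNA libraries were paired by animal (correlation of deviations 0.07 to 0.31). The replicate numbers 1 to 4 of the 16p11.2 RNA-seq did not pair (-0.22 to 0.12).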

Additional observations from a re-analysis of the deposited data

Results flagged for a closer look

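Groups of 4 libraries were checked for a sample far from the other 3 (Dixon's test). Of 100 such groups, each the 4 values of 1 member, 19 held such a sample, where chance gives about 1 in 20, or 5. Of the 19, all but 3 fell on the RNA-seq libraries that stood apart from their line. In 3g wt male 17 they were Flt1 at 36.7, Slco1a4 at 28.4, Tek at 7.44, Abcb1a at 15.3, Cdh5 at 6.90 and Tie1 at 7.81 CPM, all far below the rest of the group. In 16p11.2 del/+ male 4 they were Kdr at 18.0, Slco1a4 at 46.0, Tek at 17.7, Cdh5 at 14.2 and Tie1 at 16.8 CPM, and in 16p11.2 wt male 4 Pecam1 at 28.1, Flt1 at 85.9, Slco1a4 at 54.2, Tek at 19.5 and Cdh5 at 16.7 CPM, all far above. The other 3 were Abcb1a at 37.6 CPM in 3g del/+ female 37, Cdh5 at 12.1 CPM in 3g del/+ female 28 and Abcb1a at 4.15 CPM in the lysate RNA of 1 wt animal of the 16p11.2 line.

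The genotype effect on Kdr footprints differed between the lines by an interaction term of 2.19 on the log2 scale (edgeR adjusted p = 0.018). Values were lower in 3g del/+ and higher in 16p11.2 del/+ animals than in wt of their own line. The call was lost on leaving out some single animals (adjusted p of up to 0.10), and edgeR called neither line's own difference (adjusted p = 0.29 and 0.22). Of 66 tested genes with a higher footprint to RNA ratio than Kdr, 60 were also above 0.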

How the results depend on the processing

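Of the alternative values of single genes 753 kept their direction and side of the threshold, 27 lost a call, 7 gained one and 11 changed sign, and 326 counts of members called were within 1.5 times the main count against 15 that were not. No change had a cause that was tested. The log2 difference of Flt1 footprints in the 3g line became 0.031 with no filter, and that of Kdr RNA-seq in 16p11.2 males -0.035 without the male 4 libraries, an alternative chosen after seeing the data. DESeq2 called 1 member (Kdr) in footprints of each line, the fit with no filter called 1 in the 3g line, and scaling by total counts called 1 between wt animals of the lines. At a threshold of 0.10, 6 members were called for footprints per RNA in wt mice of the 16p11.2 line. Leaving out single libraries gave log2 differences of -0.10 to 0.67 for Cldn5 and -0.33 to 0.26 for Flt1 in 3g footprints, -0.53 to 0.55 for Kdr in RNA-seq of 16p11.2 males and -0.39 to 0.12 for Vwf in RNA-seq of 3g males. It gave 0 to 1 members called in footprints of the 16p11.2 line (1 without the wt animal with 289 CPM of Kdr), 0 to 1 in the 3g line (1 without the wt animal with 171 CPM), 0 to 1 for genotype by line in footprints, and 2 to 5 for footprints per RNA in 3g wt mice (2 without the wt animal with 331 CPM, 3 without the one with 171 CPM).

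Counts over all genes moved by more than 1.5 times between settings. In footprints they were 7 (2 to 43) in the 16p11.2 line, 1 (0 to 127) in the 3g line, 13 (4 to 119) for genotype by line and 16 (1 to 680) between wt mice, and per RNA 1 (1 to 13) and 0 (0 to 43). In lysate RNA they were 19 (10 to 32), 3 (3 to 13), 18 (8 to 36) and 2 (0 to 162) for the 16p11.2 line, the 3g line, genotype by line and wt mice. In RNA-seq of the 16p11.2 line they were 33 (27 to 60) in both sexes, 26 (20 to 50) in females, 19 (15 to 37) in males and 0 (0 to 3) for genotype by sex, in the 3g line 1 (1 to 16), 1 (1 to 175) and 0 (0 to 1) in both sexes, females and males, and for genotype by line 26 (25 to 48).

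With a replicate block for the numbers 1 to 4 of the 16p11.2 RNA-seq, which did not pair the samples, 0 members were called in males, females, both sexes and genotype by sex, with 15, 22, 27 and 2 genes called in all. With the animal as the replicate block, 6 and 3 members were called for footprints per RNA in wt mice, as without it. The RNA-seq numbers of the 3g line are not shared between groups. Depth limits the footprints most, at 0 to 18 counts per library for members other than Kdr.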
